A study of Mus musculus with 34 samples.

Results

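The collagen gene family was followed in 34 liver libraries through its 44 protein-coding genes, which were taken from the 55487 gene IDs of each of 2 deposited tables by the form of their symbol (Col, a type number, a and a chain number) and by no measured value. By the kind of protein, 11 of the 44 encode chains of fibrillar collagens, 8 encode chains of basement membrane collagens and 25 encode chains of other kinds. All 44 were in both tables.

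Collagens are secreted proteins in which 3 chains wind into a triple helix, and a chain is usable only after its prolines and lysines have been hydroxylated in the endoplasmic reticulum (ER). Fibrillar collagens (types I, III and V in the liver) form the cables of scar tissue, type IV collagen forms the sheet-like network under epithelia and vessels, and type VI collagen forms beaded filaments around cells. In the healthy liver the matrix is sparse. In fibrosis, stellate cells and portal fibroblasts are the best known sources of fibrillar collagen, while hepatocytes are a known source of type XVIII.

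All livers came from males aged 3 months, and each mouse had an injection into the abdomen before its RNA was taken. PiZ mice carry the Z variant of human alpha-1 antitrypsin, a secreted protease inhibitor that forms polymers in the ER of hepatocytes in this variant. The groups of the first table were 5 PiZ mice that are also labelled as knockouts of p50 and received PBS (PiZ p50KO), 5 PiZ mice that received PBS, 6 wild-type (WT) mice taken 2 hours after the cytokine TNFa, and 6 WT mice that received PBS. The groups of the second table, which the labels give as another batch, were 6 WT mice taken 24 hours after tunicamycin (an inhibitor of N-glycan synthesis that provokes ER stress) and 6 WT mice given its vehicle DMSO. The p50 knockout mice are thus also PiZ mice, and no group with the knockout alone was analysed here. The labels name neither the strain nor whether the WT mice were littermates. They do not say whether the libraries of a group come from separate days, so p-values measure the spread between these libraries.

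Levels are given as deposited, in log2 CPM, where CPM is a gene's share of the reads of its library on the scale of counts per 1000000 reads, and no value was compared between tables. Library sizes, in units of 1000000 reads, lay between 35.5 and 54.0 in the first table, other than WT PBS 2 with 10.2, and between 34.3 and 47.8 in the second. WT PBS 2 stood apart: 32360 genes were above 1 CPM in it, against 11683 to 13202 in the other 21 libraries, and only 72.2% of its reads were in protein-coding genes, against at least 97.3%. It is given apart throughout and is in no group mean or test unless named. Hepatocyte markers summed to between 25780 and 118900 CPM in the 33 other libraries, and none of the 6 was at 0. In bulk RNA, fewer cells of a type and less RNA per cell cannot be told apart.

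The targeted gene of the knockout, Nfkb1, which encodes p105 and p50, had 4.51, 4.86, 3.31, 3.74 and 3.37 log2 CPM in the libraries labelled PiZ p50KO 1 to 5, against 5.58, 5.45, 5.00, 4.62 and 5.12 in PiZ 1 to 5 and 3.92 to 4.34 in WT PBS. The level in the libraries labelled PiZ p50KO 1 and 2 was above that of every WT PBS library, and in 2 it was also above PiZ 4. Results on this group are therefore also given without those 2 libraries. In WT TNFa, Nfkb1 lay between 6.57 and 6.95 in 5 libraries and at 4.77 in WT TNFa 4.

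No group had more than 23 of the 44 genes at a group mean above 1 CPM. The number was 20 in PiZ p50KO (7 fibrillar, 5 basement membrane, 8 other), 22 in PiZ (7, 5 and 10), 18 in WT TNFa (7, 5 and 6) and 17 in WT PBS (7, 4 and 6). It was 23 in WT tunicamycin and 23 in WT DMSO (8, 5 and 10 in each). The 17 genes of WT PBS were Col1a1, Col1a2, Col3a1, Col5a1, Col5a2, Col5a3, Col27a1, Col4a1, Col4a2, Col15a1, Col18a1, Col6a1, Col6a2, Col6a3, Col12a1, Col13a1 and Col14a1, and each was above 1 CPM in all 5 libraries. PiZ added Col4a5, Col6a5, Col6a6, Col8a1 and Col16a1. In PiZ p50KO the count of 20 includes Col19a1, which was at 6.31 log2 CPM in the library labelled PiZ p50KO 3 and between -3.52 and -2.45 in the other 4.

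In WT PBS 2 all 44 genes were above 1 CPM. Their values there ran from 3.90 log2 CPM (Col10a1, a cartilage collagen) over a median of 5.70 to 6.96 (Col2a1, the main fibrillar collagen of cartilage), and 43 of the 44 were above every other WT PBS library. The exception was Col18a1, with 6.42 log2 CPM in WT PBS 2 against 9.44 to 9.96 in WT PBS 1, 3, 4, 5 and 6. The summed reads of that library were 770.4 CPM for the fibrillar, 439.8 CPM for the basement membrane and 1477 CPM for the other class. Skeletal muscle and cartilage markers summed to 309.3 CPM in it, against at most 0.889 CPM in the other libraries of both tables, and their part in its collagen values was not tested. Many genes other than these markers were raised in it too, with 32360 genes above 1 CPM, against 11683 to 13202 in the other 21 libraries.

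Testing needed a level above 1 CPM in no fewer than 5 (first table) or 6 libraries (second table), which 21 of the 44 genes met in the first and 22 in the other table. Tested in neither table were 21 genes: Col2a1, Col11a1 and Col24a1 of the fibrillar class, Col4a3, Col4a4 and Col4a6 of the basement membrane class, and Col6a4, Col6a6, Col7a1, Col8a2, Col9a1, Col9a2, Col9a3, Col10a1, Col17a1, Col19a1, Col22a1, Col23a1, Col25a1, Col26a1 and Col28a1. Col11a2 and Col20a1 were tested only in the second table and Col8a1 only in the first. Since a gene could pass through the group in which it was high, the counts below are over the genes tested and not over the family.

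Per kilobase of exon, Col18a1 was the most abundant collagen mRNA in every group. Col18a1 encodes the core protein of a heparan sulfate proteoglycan of basement membranes from which endostatin is cut. Its median was 111 CPM per kilobase in PiZ p50KO, 107 in PiZ, 139 in WT TNFa and 127 in WT PBS, and 103 in WT tunicamycin and 177 in WT DMSO. The order behind it differed between groups. In WT PBS it was Col14a1 (3.37 CPM per kilobase), Col4a2 (2.75), Col4a1 (2.41), Col3a1 (1.97), Col6a1 (1.66) and Col1a1 (0.935), and the ranges over libraries of each pair of neighbours overlapped except those of Col18a1 and Col14a1. In PiZ it was Col3a1 (23.5 CPM per kilobase), Col1a1 (23.1), Col4a2 (13.9), Col4a1 (13.7) and Col14a1 (13.2), with overlapping ranges between neighbours. Col18a1 overlaps the protein-coding gene Slc19a1 at chromosome 10, and Col4a1 overlaps Col4a2 at their starts; whether reads were counted by strand is not given in the sources used here, so reads from such overlaps cannot be assigned.

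The common chains of type IV collagen form a head-to-head gene pair. Col4a1 lies at chr8:11198423-11312826 on the minus strand and Col4a2 at chr8:11312805-11449287 on the plus strand (GRCm38, GENCODE annotation), so that both are transcribed away from a common start region. The chains of the main fibrils are apart: Col1a1 at chr11:94936224-94953042, Col1a2 at chr6:4504814-4541544 and Col3a1 at chr1:45311538-45349706, all on the plus strand. RefSeq promoter windows (250 bases before to 50 after a start, build GRCm38.p6) were found for 35 of the 44 genes in 38 windows. None was found for Col1a1, Col2a1, Col4a3, Col5a2, Col9a3, Col12a1, Col14a1, Col22a1 and Col26a1, which were not searched. The windows of 4 of the chains whose levels are compared below are shown. There Col1a2 and Col3a1 are each set against Col1a1, which has no window, and Col4a2 against Col4a1. Capitals mark motifs on either strand: the CCAAT box by these letters, the TATA box by the letters TATAAA, and the so-called GC box, read here as GGGCGG. No 2 marked motifs overlap in these windows. The windows lie at chr6:4505368-4505667 (plus strand), chr1:45311288-45311587 (plus), chr8:11312777-11313076 (minus) and chr8:11312555-11312854 (plus), and those of Col4a1 and Col4a2 share 78 bases.
Col1a2: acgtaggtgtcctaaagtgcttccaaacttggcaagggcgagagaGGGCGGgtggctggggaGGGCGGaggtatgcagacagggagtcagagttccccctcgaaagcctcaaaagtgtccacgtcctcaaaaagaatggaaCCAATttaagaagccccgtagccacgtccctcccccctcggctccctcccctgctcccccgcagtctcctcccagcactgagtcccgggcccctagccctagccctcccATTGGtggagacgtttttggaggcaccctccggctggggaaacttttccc
Col3a1: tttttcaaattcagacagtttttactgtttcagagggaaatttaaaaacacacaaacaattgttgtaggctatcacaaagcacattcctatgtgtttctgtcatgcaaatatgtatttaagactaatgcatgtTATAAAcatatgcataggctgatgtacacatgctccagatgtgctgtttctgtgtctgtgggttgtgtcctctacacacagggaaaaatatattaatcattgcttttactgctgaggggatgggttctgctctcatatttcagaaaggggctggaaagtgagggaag
Col4a1: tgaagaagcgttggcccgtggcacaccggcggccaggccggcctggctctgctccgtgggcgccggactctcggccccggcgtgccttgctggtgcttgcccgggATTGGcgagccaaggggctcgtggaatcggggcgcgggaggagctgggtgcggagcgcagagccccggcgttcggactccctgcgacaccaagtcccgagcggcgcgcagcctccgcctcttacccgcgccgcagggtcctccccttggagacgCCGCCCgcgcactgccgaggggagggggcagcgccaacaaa
Col4a2: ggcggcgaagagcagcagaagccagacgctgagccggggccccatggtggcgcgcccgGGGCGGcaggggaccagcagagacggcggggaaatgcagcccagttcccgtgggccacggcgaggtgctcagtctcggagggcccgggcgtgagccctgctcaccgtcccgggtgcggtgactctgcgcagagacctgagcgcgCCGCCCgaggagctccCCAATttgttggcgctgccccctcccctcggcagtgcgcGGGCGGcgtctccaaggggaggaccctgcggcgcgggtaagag

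A CCAAT box was in the windows of Col1a2, Col4a1 and Col4a2, and a TATA box in that of Col3a1. These are matches of letters only. Counted from the RefSeq start, the TATAAA of Col3a1 begins at -117 and a CCAAT match of Col1a2 begins at 0. The window of Col1a2 lies within the GENCODE span of that gene given above. Over all 38 collagen windows a CCAAT box was in 34.2%, a TATA box in 13.2% and a GC box in 60.5%, against 37.4%, 13.6% and 35.7% of the 32851 windows of the table. The NF-kB motif GGGANTTTCC and the ER stress element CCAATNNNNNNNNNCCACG, which holds a CCAAT box, were searched on both strands as well. Neither was in any of the 38 collagen windows (0.411% and 0.119% of all windows hold them), which says only that these letters are not in this stretch. It says nothing of the 9 genes without a window, Col1a1 among them.

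**Figure D1:**
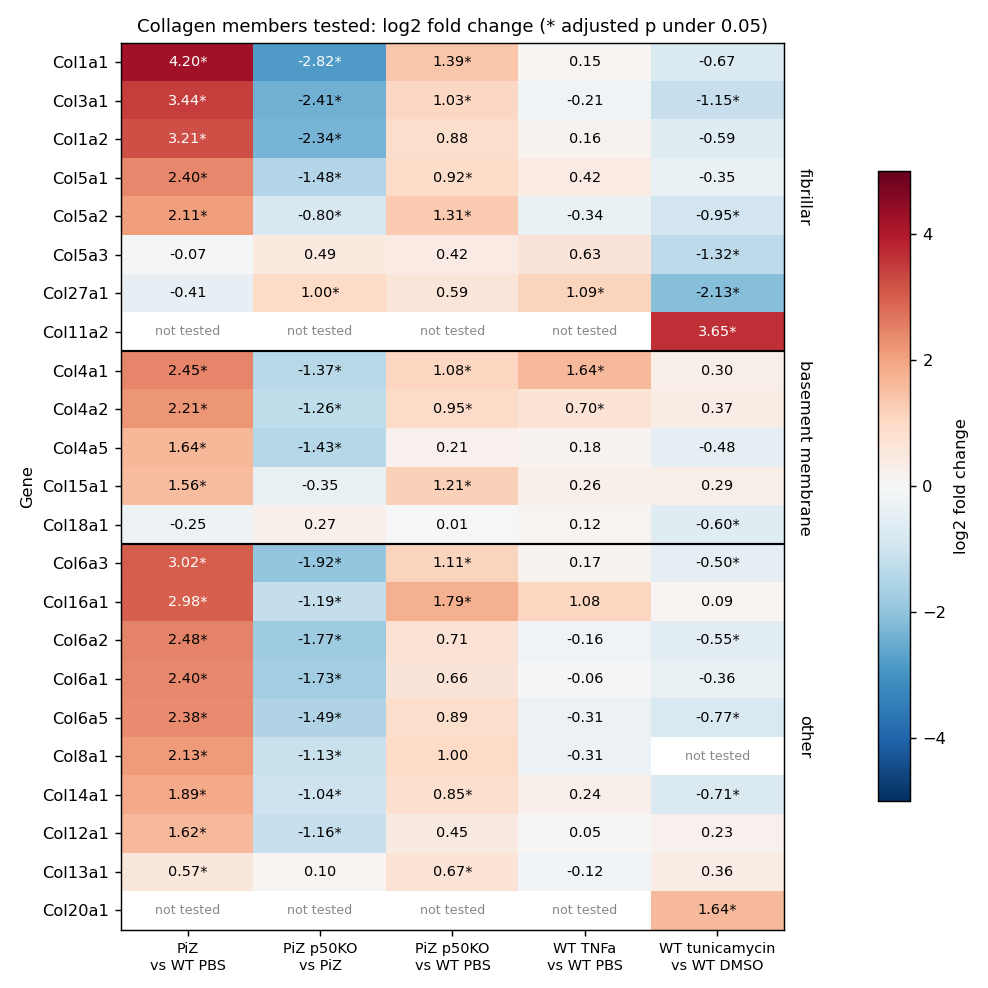
The log2 fold change of each of the 23 collagen genes tested in at least 1 table (down the page, by class) in the 5 comparisons (across), with an asterisk where the adjusted p was under 0.05. The PiZ column is positive for 18 of 21 genes and the PiZ p50KO against PiZ column negative for 17 of 21, while after TNFa only Col4a1, Col4a2 and Col27a1 carry an asterisk.

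PiZ livers held more mRNA of most tested collagens than WT PBS livers, with Col1a1, Col3a1 and Col1a2 furthest apart. Of the tested genes, 5 of 7 fibrillar (median log2 fold change 2.40), 4 of 5 basement membrane (1.64) and 9 of 9 other chains (2.38) were higher. Of 21 genes tested, 18 were higher in PiZ and 0 lower, at a median log2 fold change of 2.21. Over all 13285 genes tested, 45.6% were higher and 6.19% lower, at a median of 0.40. When the libraries were shifted to the same median over all genes, that median was -0.09 and 17 collagens were higher and 2 (Col18a1 and Col27a1) lower, against 17.4% and 22.5% of all genes. With no filter on low values, 22 of 44 collagens were higher and 1 lower, where 6833 of 37048 genes were higher and 845 lower. With a filter at 4 CPM, 13 of 16 were higher and 0 lower, where 4747 of 10161 genes were higher and 676 lower. With WT PBS 2 in the fit, 11 of 22 were higher and 0 lower, against 15.1% and 2.22% of all genes. With the main settings, neither limma nor voom on recovered reads had a collagen lower at an unadjusted p under 0.05. No share of all genes was counted at that threshold. At an adjusted p under 0.05 voom called 18 collagens higher and 0 lower. By voom 6174 of 13285 genes were higher and 823 lower.

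Type I collagen is the main protein of scar fibrils. Col1a1, its alpha1 chain, had 6.94, 7.62, 7.24, 6.34 and 7.32 log2 CPM in PiZ 1 to 5, against 2.51, 3.39, 2.61, 3.31 and 2.62 in WT PBS 1, 3, 4, 5 and 6. The groups did not overlap, and the lowest PiZ library was almost 3 log2 units above the highest WT PBS library. Col1a1 was 18.4-fold higher in PiZ (log2 fold change 4.20, SE 0.38, adjusted p = 4.38e-08). Col1a2, the alpha2 chain, had 6.71, 7.26, 6.74, 5.79 and 7.06 log2 CPM in PiZ, against 3.40, 4.13, 3.11, 3.71 and 3.14 in WT PBS, and was 9.27-fold higher (log2 fold change 3.21, SE 0.37, adjusted p = 7.27e-07). Col3a1, whose type III protein is laid down in the same fibrils, had 7.54, 8.12, 7.90, 7.16 and 7.85 log2 CPM in PiZ, against 4.39, 4.27, 4.13, 4.41 and 4.17 in WT PBS. WT PBS was tightly grouped for Col3a1, and PiZ was 10.9-fold higher (log2 fold change 3.44, SE 0.23, adjusted p = 1.57e-09).

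The remaining fibrillar chains split. Type V collagen starts and limits the width of type I fibrils, and its chains Col5a1 and Col5a2 rose in PiZ, while its alpha3 chain Col5a3 was not called. Col5a1 had 4.14, 4.82, 4.38, 3.27 and 4.55 log2 CPM in PiZ, against 2.31, 1.74, 1.57, 2.11 and 1.45 in WT PBS (log2 fold change 2.40). Col5a2 had 3.94, 4.51, 4.47, 3.69 and 4.32 in PiZ, against 1.96, 3.01, 1.97, 1.61 and 1.85 in WT PBS (log2 fold change 2.11). Neither pair of groups overlapped. Col5a3 (log2 fold change -0.07, adjusted p = 0.889) and Col27a1, a fibrillar collagen known from cartilage (log2 fold change -0.41, adjusted p = 0.227), did not pass the test.

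Of the basement membrane class, 4 of 5 tested genes rose in PiZ and Col18a1 did not pass. Col4a1, which with Col4a2 makes the common form of type IV collagen, had 6.67, 6.96, 6.59, 5.93 and 6.93 log2 CPM in PiZ, against 4.59, 4.17, 3.75, 4.32 and 4.01 in WT PBS (log2 fold change 2.45, SE 0.35, adjusted p = 8.23e-06). Col4a2 had 6.12, 6.66, 6.53, 6.04 and 6.71 in PiZ, against 4.31, 4.19, 4.07, 4.41 and 4.04 in WT PBS (log2 fold change 2.21, SE 0.23). The groups did not overlap for either chain. Col4a5, a chain of a rarer form of type IV (log2 fold change 1.64), and Col15a1, a proteoglycan that links basement membranes to the matrix around them, also rose. Col15a1 had 3.64, 4.07, 3.97, 3.66 and 3.97 log2 CPM in PiZ, against 2.14, 1.82, 2.41, 2.42 and 2.73 in WT PBS (log2 fold change 1.56). Col18a1 had 9.37, 9.55, 9.62, 9.11 and 9.86 in PiZ, against 9.96, 9.80, 9.45, 9.85 and 9.72 in WT PBS, and the groups overlapped (log2 fold change -0.25, adjusted p = 0.231). Col18a1 changes its call with the scaling: shifted to the same median its log2 fold change was -0.74 with adjusted p = 0.000414.

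All 9 tested genes of the other class rose in PiZ. Of these, Col6a5, Col8a1 and Col16a1 were above 1 CPM in every PiZ library and in no WT PBS library. Type VI collagen led it, with Col6a3 at 4.95, 5.58, 5.36, 4.98 and 5.47 log2 CPM in PiZ, against 1.81, 2.66, 2.13, 2.58 and 2.03 in WT PBS (log2 fold change 3.02, SE 0.27, adjusted p = 4.84e-08). Col6a2 had 4.45, 5.14, 5.00, 4.62 and 5.05 in PiZ, against 2.06, 2.91, 2.15, 2.48 and 2.23 in WT PBS (log2 fold change 2.48). Col6a1 had 5.06, 5.56, 5.36, 4.95 and 5.42 in PiZ, against 2.67, 3.35, 2.51, 2.86 and 2.98 in WT PBS (log2 fold change 2.40). The groups of these 3 chains, which together form the common type VI protein, did not overlap. Col6a5, a chain that can stand in for alpha3, rose by 2.38 on the log2 scale to between 0.67 and 2.03 log2 CPM in PiZ, against -1.54 to -0.26 in WT PBS.

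The FACIT collagens bind to the surface of fibrils. Col16a1 had 1.52, 2.31, 1.97, 0.79 and 2.25 log2 CPM in PiZ, against -1.02, -0.89, -0.43, -1.39 and -2.31 in WT PBS (log2 fold change 2.98). Col14a1 had 6.42, 6.76, 6.59, 6.30 and 6.53 in PiZ, against 4.74, 4.92, 4.48, 4.57 and 4.43 in WT PBS, with the smallest SE of the family (log2 fold change 1.89, SE 0.14). Col12a1 rose by 1.62 on the log2 scale. Col8a1, a short chain of vessel wall networks, had 1.07, 0.93, 0.96, 0.11 and 0.55 log2 CPM in PiZ, against -1.89, -0.83, -1.09, -2.02 and -1.19 in WT PBS (log2 fold change 2.13). The smallest of the 18 changes was that of Col13a1, a transmembrane collagen (log2 fold change 0.57, adjusted p = 0.0254), whose groups overlapped and whose call was lost without PiZ 5, without WT PBS 6 and after the shift to the same median. With WT PBS 2 in the fit, the calls of Col4a5, Col6a5, Col8a1, Col12a1, Col13a1, Col15a1 and Col16a1 were lost.

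**Figure D2:**
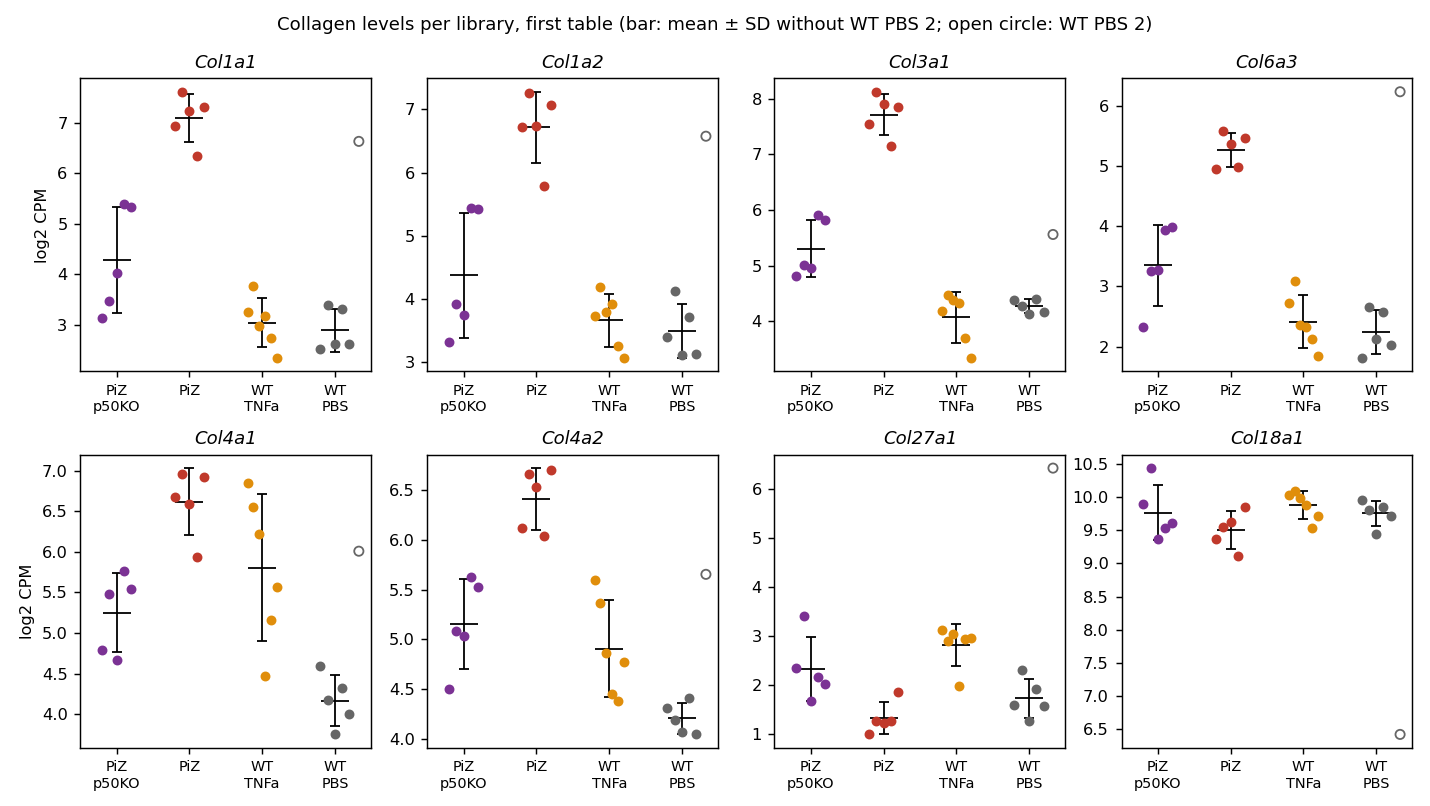
Log2 CPM per library (vertical axis) of 8 collagen genes in the 4 groups of the first table; points are libraries, bars the mean and SD without WT PBS 2, and the open circle is WT PBS 2. Col1a1 lies between 6.34 and 7.62 in PiZ and at most at 3.39 in WT PBS, whereas Col18a1 lies between 9.11 and 10.44 in all libraries other than WT PBS 2.

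Summed over the class, fibrillar reads made up 453.2, 685.0, 546.1, 307.8 and 576.7 CPM in PiZ 1 to 5, against 56.2, 67.67, 43.41, 59.73 and 45.45 CPM in WT PBS 1, 3, 4, 5 and 6, a ratio of medians of 9.72. The other class had medians of 232.2 CPM in PiZ and 48.39 CPM in WT PBS (ratio 4.8), also without overlap. The basement membrane class had medians of 998.1 CPM in PiZ and 934.8 CPM in WT PBS and overlapped, but without Col18a1 they were 208.6 CPM in PiZ and 41.59 CPM in WT PBS (ratio 5.02) without overlap. The sum without Col18a1 was not among the planned class sums. As a share of all collagen reads, the fibrillar class took 25.9% to 35.2% in PiZ, against 4.67% to 6.34% in WT PBS.

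The genes that make, cleave and bind collagen were described from a list of 50, of which 43 were tested. In PiZ 33 rose and 1 fell, which is 33 of 43 beside 45.6% of all genes higher and 6.19% lower, and the median log2 fold change was 1.44, beside 0.40 over all genes. The greatest changes were those of the collagen-binding integrin chain Itga2 (log2 fold change 3.75), the collagen receptor kinase Ddr1 (3.47), the fibril-binding proteoglycan Lum (2.57) and Adamts14, a protease that removes the amino-terminal propeptide (2.56). Itga2 and Adamts14 were of low level, with means of -0.10 and 0.50 log2 CPM even in PiZ. Bmp1, a protease of the carboxy-terminal propeptide, was the 1 that fell (-0.58, adjusted p = 0.0111). By role, 9 of 14 genes of prolyl and lysyl modification, 7 of 9 of chaperones and export, 3 of 5 of propeptide cleavage, 7 of 7 of receptors and uptake and 7 of 8 fibril-associated genes rose, each to be read beside the 45.6% of all genes.

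Marker lists of most non-hepatocyte cells moved with these changes, to be read beside the 45.6% of all genes that were higher. Stellate cell markers were higher in PiZ for 8 of 10 tested and summed to 316.1 to 425.6 CPM in PiZ, against 140.8 to 200.2 CPM in WT PBS. Portal fibroblast markers were higher for 5 of 5 tested of 6 listed, with 28.94 to 56.78 CPM in PiZ and 4.487 to 9.568 CPM in WT PBS, and myofibroblast markers for 3 of 3 tested of 5 listed, with 18.19 to 36.3 CPM in PiZ and 4.853 to 8.87 CPM in WT PBS. Kupffer cell and macrophage markers were higher for 6 of 7 and cholangiocyte markers for 4 of 5 tested of 6. Sinusoidal endothelial markers were higher for 6 of 8 (323.9 to 438.6 CPM in PiZ and 226.6 to 310.5 CPM in WT PBS), mesothelium markers for 1 of 3 tested of 4 and pancreatic acinar markers for 1 of 7, while of 6 hepatocyte markers 0 rose and 3 fell. No stellate, portal fibroblast or myofibroblast marker was at 0 in every library of a group, and the part of these cells in the collagen changes was not tested.

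In the libraries labelled PiZ p50KO, most collagens were lower than in PiZ. Of 21 genes tested, 16 were lower and 1 higher, at a median log2 fold change of -1.26. Over all genes tested 21.6% were lower and 3.36% higher, at a median of -0.22. Without the libraries labelled PiZ p50KO 1 and 2, 13 were lower and 0 higher (9.62% and 1.58% of all genes). With WT PBS 2 in the fit 6 were lower and 0 higher (2.96% and 0.512%). That fit had 10 lower and 0 higher at an unadjusted p under 0.05 by limma, for which no share of all genes was counted. Shifted to the same median, 13 were lower and 2 higher, against 9.11% and 9.84% of all genes.

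Col1a1 had 3.13, 3.47, 4.03, 5.40 and 5.34 log2 CPM in the libraries labelled PiZ p50KO 1 to 5, against 6.94, 7.62, 7.24, 6.34 and 7.32 in PiZ 1 to 5. All 5 were below every PiZ library, but libraries 4 and 5 lay more than 1 log2 unit above the rest. Col1a1 fell 7.05-fold (log2 fold change -2.82, SE 0.38, adjusted p = 3.19e-05), and the log2 fold change was -2.17 without libraries 1 and 2. Col1a2 had 3.33, 3.92, 3.76, 5.44 and 5.43 log2 CPM in the libraries labelled PiZ p50KO, against 6.71, 7.26, 6.74, 5.79 and 7.06 in PiZ (log2 fold change -2.34, SE 0.37; -1.84 without libraries 1 and 2). Col3a1 had 4.82, 5.02, 4.96, 5.90 and 5.81 in the libraries labelled PiZ p50KO, against 7.54, 8.12, 7.90, 7.16 and 7.85 in PiZ (log2 fold change -2.41, SE 0.23, adjusted p = 6e-07; -2.16 without libraries 1 and 2). Libraries 4 and 5 were also the highest of this group for Col1a2 and Col3a1, and neither gene overlapped with PiZ.

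Type VI followed. Col6a3 had 2.32, 3.25, 3.27, 3.93 and 3.98 log2 CPM in the libraries labelled PiZ p50KO, against 4.95, 5.58, 5.36, 4.98 and 5.47 in PiZ (log2 fold change -1.92). Col6a2 had 2.31, 2.78, 2.92, 3.91 and 3.49 in the libraries labelled PiZ p50KO, against 4.45, 5.14, 5.00, 4.62 and 5.05 in PiZ (log2 fold change -1.77), and Col6a1 had 2.81, 3.17, 3.09, 4.39 and 4.24 in the libraries labelled PiZ p50KO, against 5.06, 5.56, 5.36, 4.95 and 5.42 in PiZ (log2 fold change -1.73). None of the 3 overlapped with PiZ. Without libraries 1 and 2 their log2 fold changes were -1.54 (Col6a3), -1.41 (Col6a2) and -1.36 (Col6a1).

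Both common type IV chains fell as well. Col4a1 had 4.79, 5.48, 4.66, 5.76 and 5.54 log2 CPM in the libraries labelled PiZ p50KO, against 6.67, 6.96, 6.59, 5.93 and 6.93 in PiZ (log2 fold change -1.37, adjusted p = 0.00679; -1.30 without libraries 1 and 2). Col4a2 had 4.50, 5.09, 5.03, 5.63 and 5.52 in the libraries labelled PiZ p50KO, against 6.12, 6.66, 6.53, 6.04 and 6.71 in PiZ (log2 fold change -1.26; -1.02 without libraries 1 and 2). The groups did not overlap for either. The multiplexins did not pass the test: Col15a1 had 3.87, 3.69, 2.82, 3.64 and 3.52 in the libraries labelled PiZ p50KO, against 3.64, 4.07, 3.97, 3.66 and 3.97 in PiZ (log2 fold change -0.35). Col18a1 had 9.89, 10.44, 9.37, 9.53 and 9.61 in the libraries labelled PiZ p50KO, against 9.37, 9.55, 9.62, 9.11 and 9.86 in PiZ (log2 fold change 0.27, adjusted p = 0.282), and was called higher after the shift to the same median (0.52, adjusted p = 0.0169).

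The further genes that fell were Col6a5 (log2 fold change -1.49), Col5a1 (-1.48), Col4a5 (-1.43), Col16a1 (-1.19), Col12a1 (-1.16), Col8a1 (-1.13), Col14a1 (-1.04) and Col5a2 (-0.80). Among them Col16a1, Col8a1 and Col5a2 lost their call without 1 or more single libraries: Col16a1 without PiZ p50KO 1, 2 or 3 or PiZ 2, 3 or 5; Col8a1 without PiZ p50KO 1 or 2 or PiZ 1, 2, 3 or 5; and Col5a2 without PiZ p50KO 1, 3 or 4 or PiZ 2, 3 or 5. Col5a3 (log2 fold change 0.49) and Col13a1 (0.10) were not called. Col27a1 was the 1 gene that rose: it had 2.34, 3.40, 1.68, 2.16 and 2.02 log2 CPM in the libraries labelled PiZ p50KO, against 0.99, 1.27, 1.22, 1.27 and 1.86 in PiZ. The groups overlapped, library 2 was highest, and the call (log2 fold change 1.00, adjusted p = 0.0124) was lost without libraries 1 and 2.

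The fibrillar class summed to 75.24, 100.3, 78.72, 173.0 and 170.4 CPM in the libraries labelled PiZ p50KO 1 to 5, against 307.8 to 685.0 CPM in PiZ, and took 5.99% to 15.1% of collagen reads there, against 25.9% to 35.2% in PiZ. The other class summed to 64.68 to 155.0 CPM in PiZ p50KO and 183.6 to 263.6 CPM in PiZ; the highest PiZ p50KO value is that of library 3 with Col19a1, and without Col19a1 the range was 64.61 to 116.9 CPM. Of the pathway list, 25 genes were lower and 1 higher (Bmp1) of 43 tested, at a median log2 fold change of -0.75, beside 21.6% lower, 3.36% higher and a median of -0.22 over all genes. Without the libraries labelled PiZ p50KO 1 and 2, 17 were lower and 0 higher (median -0.55), beside 9.62% and 1.58% of all genes. With all 5 libraries the lowest were Ddr1 (-2.49), the collagen uptake receptor Mrc2 (-1.72), the fibril-binding proteoglycan Fmod (-1.64) and Lum (-1.64).

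Several marker lists were lower in the same libraries, where 21.6% of all genes were. Portal fibroblast markers summed to 7.246, 9.016, 9.137, 27.17 and 21.58 CPM in the libraries labelled PiZ p50KO 1 to 5, against 28.94 to 56.78 CPM in PiZ, and 5 of 5 tested were lower. Stellate cell markers were lower for 6 of 10 (205.8 to 301.0 CPM in PiZ p50KO and 316.1 to 425.6 CPM in PiZ), myofibroblast markers for 2 of 3 (5.138 to 28.13 CPM in PiZ p50KO and 18.19 to 36.3 CPM in PiZ) and Kupffer cell and macrophage markers for 7 of 7. Cholangiocyte markers were lower for 3 of 5, sinusoidal endothelial markers for 2 of 8 and mesothelium markers for 1 of 3, and 2 of 6 hepatocyte markers were higher. Without the libraries labelled PiZ p50KO 1 and 2, the markers called lower were 2 of 5 for portal fibroblasts, 4 of 10 for stellate cells, 0 of 3 for myofibroblasts and 0 of 3 for the mesothelium, and those of macrophages, cholangiocytes and sinusoidal endothelium numbered as before. None of 7 pancreatic acinar markers was called, though they reached 1125 CPM in the library labelled PiZ p50KO 4, against 20.97 to 99.28 CPM in PiZ. The part of these cells in the collagen values was not tested.

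Set against WT PBS, the libraries labelled PiZ p50KO held 11 of 21 collagens higher and 0 lower, where 10.5% of all genes were higher and 1.14% lower. At an unadjusted p under 0.05 limma had 17 higher and 0 lower, but no share of all genes was counted at that threshold. At an adjusted p under 0.05 voom called 9 higher and 0 lower. By voom 1060 of 13285 genes were higher and 148 lower. The greatest changes were those of Col16a1 (log2 fold change 1.79), Col1a1 (1.39), Col5a2 (1.31), Col15a1 (1.21) and Col6a3 (1.11), followed by Col4a1 (1.08), Col3a1 (1.03), Col4a2 (0.95), Col5a1 (0.92), Col14a1 (0.85) and Col13a1 (0.67). The groups overlapped for Col1a1, Col6a3, Col5a1 and Col13a1. Without the library labelled PiZ p50KO 4 or 5 or without WT PBS 4 or 6, Col1a1, Col4a1, Col5a1 and Col13a1 lost their call. With a block for the replicate number, Col1a1, Col4a1, Col4a2, Col5a1 and Col13a1 were no longer called. In a model of the 2 groups alone, where 17 collagens were tested, Col1a1, Col5a1, Col6a3, Col13a1 and Col16a1 were without a call. Col16a1 was also without one with a filter at 4 CPM, where 16 were tested. Col4a1 and Col5a1 were not called by voom or with a pseudocount of 1 CPM. Col1a2 (log2 fold change 0.88, adjusted p = 0.117), Col6a1 (0.66), Col6a2 (0.71) and Col18a1 (0.01) did not pass. The count was 7 without the library labelled PiZ p50KO 4 or 5 or without WT PBS 4 or 6. In those 4 fits 655 to 859 of 13239 to 13268 genes were higher and 48 to 89 lower. The count was 12 without the libraries labelled PiZ p50KO 1 and 2 (15.5% of all genes higher and 2.85% lower). There Col1a2, Col6a1, Col6a2 and Col8a1 were called higher, and Col4a1, Col5a1 and Col13a1 lost their call. It was 8 after the shift to the same median (3.2% higher and 4.33% lower), and 0 with WT PBS 2 in the fit (0.0817% higher and 0.00743% lower). The fit with WT PBS 2 had 3 collagens higher at an unadjusted p under 0.05 by limma, for which no share of all genes was counted. Of the markers, 4 of 10 stellate (205.8 to 301.0 CPM in PiZ p50KO and 140.8 to 200.2 CPM in WT PBS), 2 of 3 myofibroblast (5.138 to 28.13 CPM in PiZ p50KO and 4.853 to 8.87 CPM in WT PBS) and 1 of 5 portal fibroblast genes (7.246 to 27.17 CPM in PiZ p50KO and 4.487 to 9.568 CPM in WT PBS) were higher and 0 lower. Pancreatic acinar markers were higher for 5 of 7, with 19.23 to 1125 CPM in PiZ p50KO and 16.03 to 23.75 CPM in WT PBS. Macrophage markers were higher for 2 and lower for 1 of 7, cholangiocyte and sinusoidal endothelial markers higher for 1 each (of 5 and of 8), and mesothelium and hepatocyte markers called for 0. Without the libraries labelled PiZ p50KO 1 and 2, the markers higher were 3 of 3 for myofibroblasts, 2 of 5 for portal fibroblasts and 6 of 7 for pancreatic acinar cells. They were 2 of 5 for cholangiocytes and 1 of 3 for the mesothelium, and the other lists numbered as before. The part of these cells in the collagen values was not tested. This comparison and the one above share the PiZ p50KO libraries, and PiZ and TNFa share the WT PBS libraries.

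**Figure D3:**
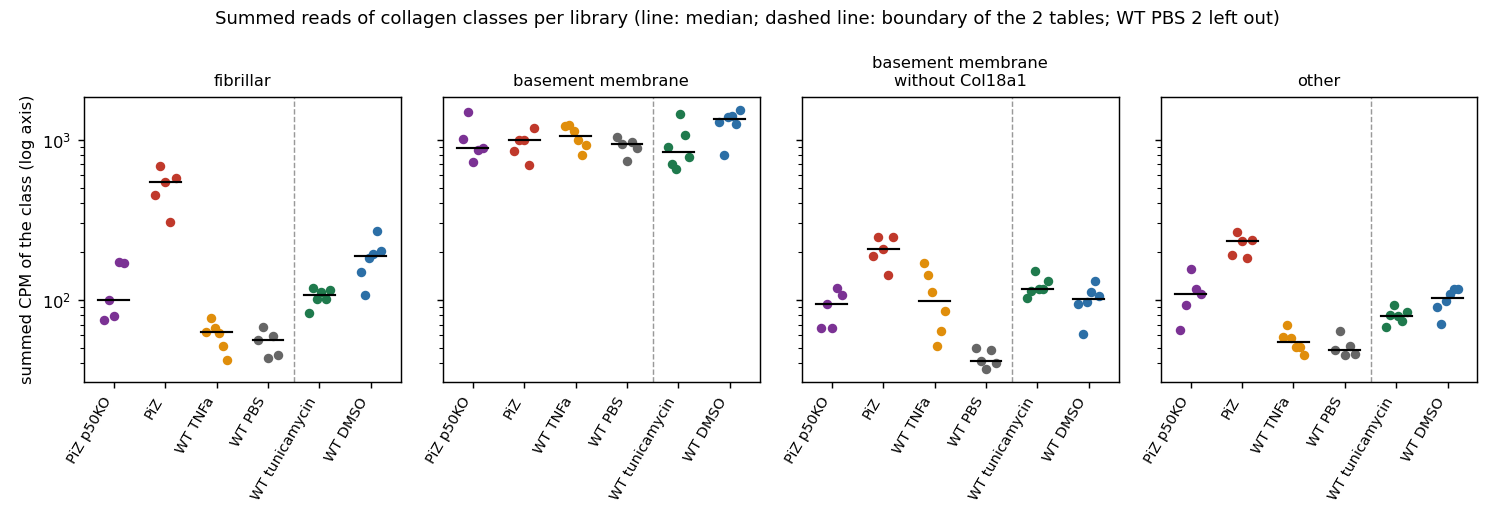
Summed CPM of each collagen class per library (log axis) in the 6 groups; points are libraries and lines group medians. The fibrillar class has a median of 100.3 CPM in PiZ p50KO, 546.1 in PiZ, 62.44 in WT TNFa and 56.2 in WT PBS. The basement membrane class, which Col18a1 makes up for the most part, has medians of 888.0, 998.1, 1060 and 934.8 CPM in these groups. Without Col18a1 they are 93.84, 208.6, 98.55 and 41.59 CPM, with no overlap of PiZ p50KO with PiZ or of WT TNFa with WT PBS. In this sum, which was not planned, the lowest WT TNFa library is at 51.33 CPM and the highest WT PBS library at 49.92 CPM. In the second table the whole class has medians of 840.5 CPM in WT tunicamycin and 1337 CPM in WT DMSO, and the groups overlap.

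At 2 hours after TNFa, 3 collagens were higher than in WT PBS and 0 lower, of 21 tested. Over all genes tested 7.63% were higher and 4.05% lower, and the median log2 fold change was 0.16 for the collagens and -0.02 for all genes. At an unadjusted p under 0.05 limma had 4 higher and 0 lower, but no share of all genes was counted at that threshold. At an adjusted p under 0.05 voom called 3 higher and 0 lower. By voom 943 of 13285 genes were higher and 479 lower. Shifted to the same median, 3 were again higher (7.42% of all genes, with 6.18% lower), and with WT PBS 2 in the fit 1 was higher (2.18%, with 1.88% lower).

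The gene that changed most was Col4a1, which had a lowest, median and highest value of 4.47, 5.90 and 6.85 log2 CPM in the 6 WT TNFa libraries, against 4.59, 4.17, 3.75, 4.32 and 4.01 in WT PBS 1, 3, 4, 5 and 6. Its lowest value was that of WT TNFa 4, within the range of WT PBS, and the 5 others were above all of WT PBS. Col4a1 was 3.12-fold higher (log2 fold change 1.64, SE 0.33, adjusted p = 0.00187). Its neighbour Col4a2 had 4.38, 4.82 and 5.59 (lowest, median, highest) in WT TNFa, against 4.31, 4.19, 4.07, 4.41 and 4.04 in WT PBS, and the groups overlapped (log2 fold change 0.70, adjusted p = 0.0375). The Col4a2 call was lost without WT TNFa 1, 2, 3 or 6 or WT PBS 1, 3, 4 or 6, with log2 fold changes of 0.56 to 0.81 over the libraries left out. Col27a1 had 1.97, 2.95 and 3.13 (lowest, median, highest) in WT TNFa, against 1.60, 2.30, 1.26, 1.92 and 1.57 in WT PBS (log2 fold change 1.09, adjusted p = 0.00817). Here too WT TNFa 4 was lowest, and the other 5 were above all of WT PBS.

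The chains of types I, III and VI, Col15a1 and Col18a1 were not called after TNFa. Col1a1 had 2.33, 3.07 and 3.75 log2 CPM (lowest, median, highest) in WT TNFa, against 2.51, 3.39, 2.61, 3.31 and 2.62 in WT PBS (log2 fold change 0.15, SE 0.36). The log2 fold changes were 0.16 (SE 0.35) for Col1a2, -0.21 (SE 0.23) for Col3a1, -0.06 for Col6a1, -0.16 for Col6a2, 0.17 for Col6a3, 0.26 for Col15a1 and 0.12 for Col18a1. Col16a1 had the greatest fold change of the genes not called (log2 fold change 1.08, adjusted p = 0.0677) and passed only without WT TNFa 5 or WT PBS 4. Of the pathway list 5 of 43 genes rose and 0 fell, beside 7.63% and 4.05% of all genes: Itga2 (3.06), Adamts14 (1.47), the transcription factors Creb3l2 (1.17) and Creb3l1 (1.01), which act on collagen and secretory pathway genes, and Serpinh1, the collagen chaperone HSP47 (1.06). Creb3l1, the least changed of these, is named after its value was seen. Itga2 and Adamts14 were of low level: both rose less than in PiZ, where their means were -0.10 and 0.50 log2 CPM. Stellate cell markers summed to 174.6 to 219.6 CPM in WT TNFa and 140.8 to 200.2 CPM in WT PBS (1 higher and 2 lower of 10). Sinusoidal endothelial markers summed to 199.1 to 299.5 CPM in WT TNFa and 226.6 to 310.5 CPM in WT PBS (1 higher and 3 lower of 8), and cholangiocyte markers to 28.14 to 49.6 CPM in WT TNFa and 23.38 to 26.95 CPM in WT PBS (2 higher of 5). Macrophage markers were higher for 1 of 7 (216.9 to 306.8 CPM in WT TNFa and 169.4 to 199.4 CPM in WT PBS), and no myofibroblast, portal fibroblast, mesothelium or hepatocyte marker was called. Pancreatic acinar markers were higher for 1 of 7 and reached 3651 CPM in WT TNFa 5, against at most 23.75 CPM in WT PBS. Their part in the collagen values was not tested.

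At 24 hours after tunicamycin the family split, with 2 of 22 tested genes higher and 9 lower than in DMSO. All genes moved mostly upward (45.3% higher and 13.5% lower of 13388, median log2 fold change 0.38), and the collagen median was -0.49. Shifted to the same median over all genes, 2 were higher and 14 lower (24.1% and 29.2% of all genes), the 5 further ones being Col1a1, Col1a2, Col4a5, Col5a1 and Col6a1. The same 5 were also called without WT DMSO 2, again with 14 lower, where 6301 of 13259 genes were higher and 2402 lower.

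The genes that rose were Col11a2 and Col20a1. Both were above 1 CPM in every WT tunicamycin library but not in WT DMSO 2, so they met the filter of 6 libraries through the tunicamycin group. With no filter on low values both were still called, where 6605 of 35224 genes were higher and 2007 lower. Col11a2, a fibrillar chain best known from cartilage, had a lowest, median and highest value of 3.28, 4.51 and 5.37 log2 CPM in WT tunicamycin, against -1.04, 1.15 and 1.31 in WT DMSO. The groups did not overlap (log2 fold change 3.65, SE 0.47, adjusted p = 4.31e-05, 12.6-fold). Col20a1, a FACIT, had 1.84, 2.65 and 4.61 in WT tunicamycin, against -0.44, 1.62 and 1.88 in WT DMSO (log2 fold change 1.64, SE 0.51, adjusted p = 0.0144). Tunicamycin libraries 5, 6 and U3 were the 3 highest for both genes, and WT DMSO 2 was the lowest of its group for both. Without WT DMSO 2 the log2 fold changes were 3.29 (Col11a2) and 1.29 (Col20a1), and both were still called. U1, U2 and U3 are the 3 tunicamycin libraries that the labels tie to the group but not to a replicate number.

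The fall was greatest for Col27a1 and Col5a3. Col27a1 had 2.24, 2.94 and 3.90 log2 CPM (lowest, median, highest) in WT tunicamycin, against 4.40, 5.11 and 5.75 in WT DMSO, and was 4.38-fold lower (log2 fold change -2.13, SE 0.28, adjusted p = 4.76e-05). Col5a3 had 3.25, 4.22 and 4.75 in WT tunicamycin, against 4.92, 5.52 and 6.00 in WT DMSO (log2 fold change -1.32, adjusted p = 0.000696). Col3a1 had 3.44, 4.33 and 4.75 in WT tunicamycin, against 4.82, 5.31 and 6.31 in WT DMSO (log2 fold change -1.15, adjusted p = 0.0016). None of these 3 overlapped between groups. Of the rest, Col5a2 (-0.95), Col6a5 (-0.77), Col14a1 (-0.71), Col6a2 (-0.55) and Col6a3 (-0.50) fell on the log2 scale without a change of call when single libraries were left out.

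Col18a1 had 8.98, 9.49 and 10.38 log2 CPM (lowest, median, highest) in WT tunicamycin, against 9.53, 10.28 and 10.49 in WT DMSO (log2 fold change -0.60, adjusted p = 0.0441). The groups overlapped, and the call was lost without WT DMSO 1, 3, 4, 5 or 6 or WT tunicamycin 1, 5, 6 or U3. The type I chains had log2 fold changes of -0.67 (Col1a1, adjusted p = 0.0789) and -0.59 (Col1a2, adjusted p = 0.085). Col1a1 spread over 2.64, 3.46 and 5.11 log2 CPM (lowest, median, highest) in WT DMSO, with WT DMSO 5 highest, and over only 2.73, 3.02 and 3.07 in WT tunicamycin. The type IV chains were not called, with log2 fold changes of 0.30 (Col4a1) and 0.37 (Col4a2, called only without WT DMSO 5), nor were Col15a1 (0.29), Col6a1 (-0.36), Col4a5 (-0.48), Col5a1 (-0.35), Col12a1 (0.23), Col13a1 (0.36) and Col16a1 (0.09).

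**Figure D4:**
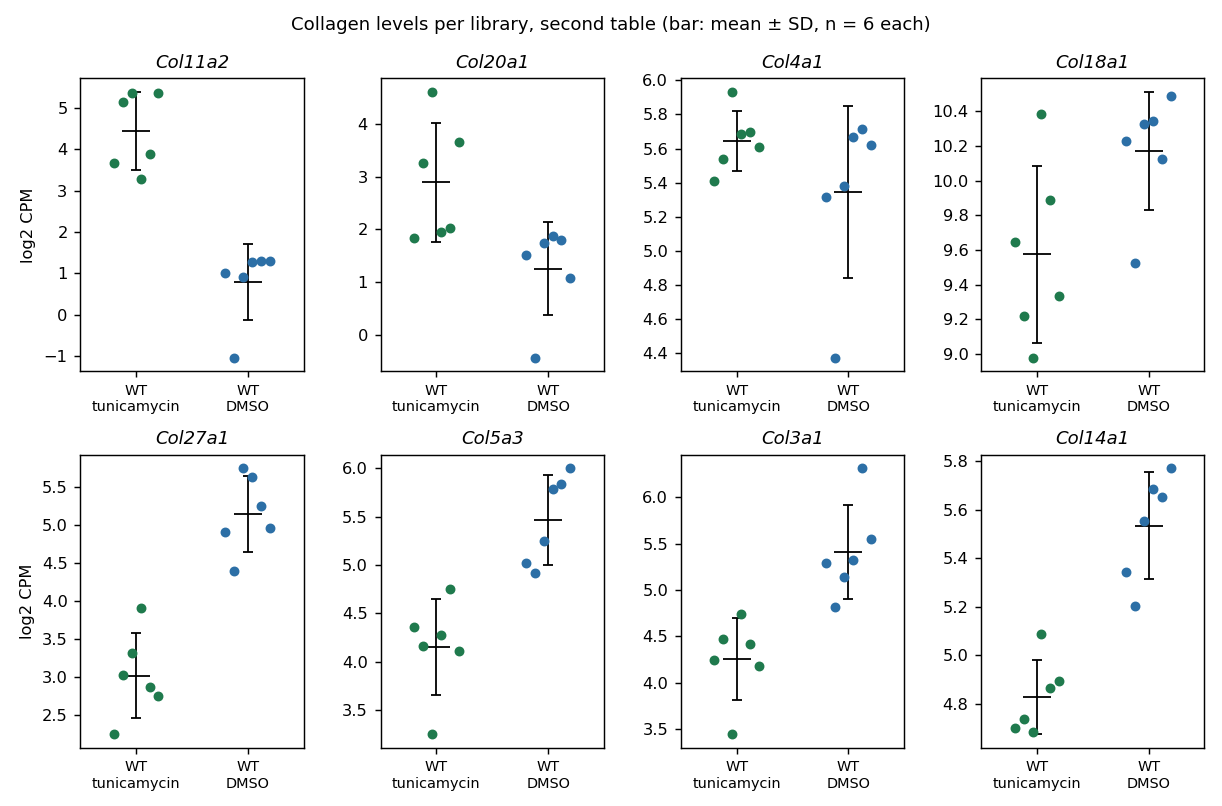
Log2 CPM per library (vertical axis) of 8 collagen genes in WT tunicamycin and WT DMSO; points are libraries and bars the mean and SD. Col11a2 lies at 3.28 to 5.37 in WT tunicamycin and at most at 1.31 in WT DMSO, while Col27a1 lies at 2.24 to 3.90 in WT tunicamycin and at 4.40 to 5.75 in WT DMSO.

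Of 39 tested genes of the pathway list, 15 were higher after tunicamycin and 5 lower, at a median log2 fold change of 0.14. Over all genes 45.3% were higher and 13.5% lower, at a median of 0.38, so the share of the list that was higher lay under that of all genes and the share that was lower near it. The enzymes and chaperones of proline modification P3h1 (2.79), P4hb (2.67) and Ppib (2.46) rose most, followed by Creb3l2 (2.26). By role, 7 of 12 genes of prolyl and lysyl modification and 6 of 8 of chaperones and export rose and 0 fell, whereas of 8 fibril-associated genes 0 rose and 4 fell. Serpinh1, named after its value was seen, was not called (log2 fold change -0.20). The summed reads of the fibrillar class were 82.68 to 118.9 CPM in WT tunicamycin and 106.6 to 269.2 CPM in WT DMSO, with medians of 106.5 CPM in WT tunicamycin and 188.0 CPM in WT DMSO. Stellate cell markers were called for 3 of 10 (1 higher, 2 lower), portal fibroblast, cholangiocyte and mesothelium markers for 0 (of 4, 5 and 3 tested), macrophage markers were lower for 4 of 7, sinusoidal endothelial markers for 1 of 8 and myofibroblast markers for 1 of 2 tested, and hepatocyte markers fell for 3 of 6, with sums of 25780 to 67720 CPM in WT tunicamycin and 85160 to 117900 CPM in WT DMSO. Pancreatic acinar markers were higher for 5 of 6 tested and reached 1100 CPM in U2, against at most 27.37 CPM in WT DMSO. The part of these cells in the collagen values was not tested.

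A difference between 2 chains within a library does not depend on how libraries are scaled, and 3 pairs were tested in 4 comparisons by exact permutation over libraries, two-sided, with adjustment over the 12 tests. The smallest p the design allows is 0.00794 for 5 against 5 libraries and 0.00216 where a group has 6. In PiZ the alpha2 chain of type I collagen was lower relative to alpha1: Col1a2 minus Col1a1 was -0.23, -0.36, -0.50, -0.56 and -0.25 log2 units in PiZ 1 to 5, against 0.89, 0.74, 0.50, 0.41 and 0.52 in WT PBS 1, 3, 4, 5 and 6. The sign differed between the groups in every library, and the means differed by -0.99 (exact permutation p = 0.00794, adjusted p = 0.0318), with -1.04 to -0.92 when single libraries were left out. Col3a1 minus Col1a1 averaged 0.62 ± 0.12 in PiZ and 1.38 ± 0.39 in WT PBS (SD, n = 5 each; difference -0.76, exact permutation adjusted p = 0.0318), and the adjusted p was 0.0636 without any 1 of the PiZ libraries.

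In the libraries labelled PiZ p50KO, Col1a2 minus Col1a1 was 0.19, 0.45, -0.27, 0.05 and 0.09, against -0.56 to -0.23 in PiZ, and the difference of 0.48 did not pass (exact permutation adjusted p = 0.0714; 0.0238 without the library labelled PiZ p50KO 3). After TNFa it did not pass either (0.62 ± 0.16 in WT TNFa and 0.61 ± 0.20 in WT PBS, SD, n = 6 and n = 5, exact permutation adjusted p = 0.907). The head-to-head type IV pair moved apart after TNFa: Col4a2 minus Col4a1 was -1.26, -1.19, -1.36, -0.02, -0.78 and -0.80 in WT TNFa 1 to 6, against -0.28, 0.02, 0.32, 0.09 and 0.04 in WT PBS 1, 3, 4, 5 and 6. WT TNFa 4 alone lay within the range of WT PBS. The means differed by -0.94 (exact permutation p = 0.00649, adjusted p = 0.0318), and -1.11 without WT TNFa 4; without any other single library the adjusted p was between 0.0571 and 0.0714. In PiZ the same pair differed from WT PBS by -0.24 and did not pass (exact permutation adjusted p = 0.245), and after tunicamycin by 0.07 (adjusted p = 0.627). The 5 tests not named here had exact permutation adjusted p of 0.125 to 0.72. Among them, Col3a1 minus Col1a1 after tunicamycin had a difference of -0.60 and adjusted p = 0.026 without WT DMSO 5 (exact permutation).

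**Figure D5:**
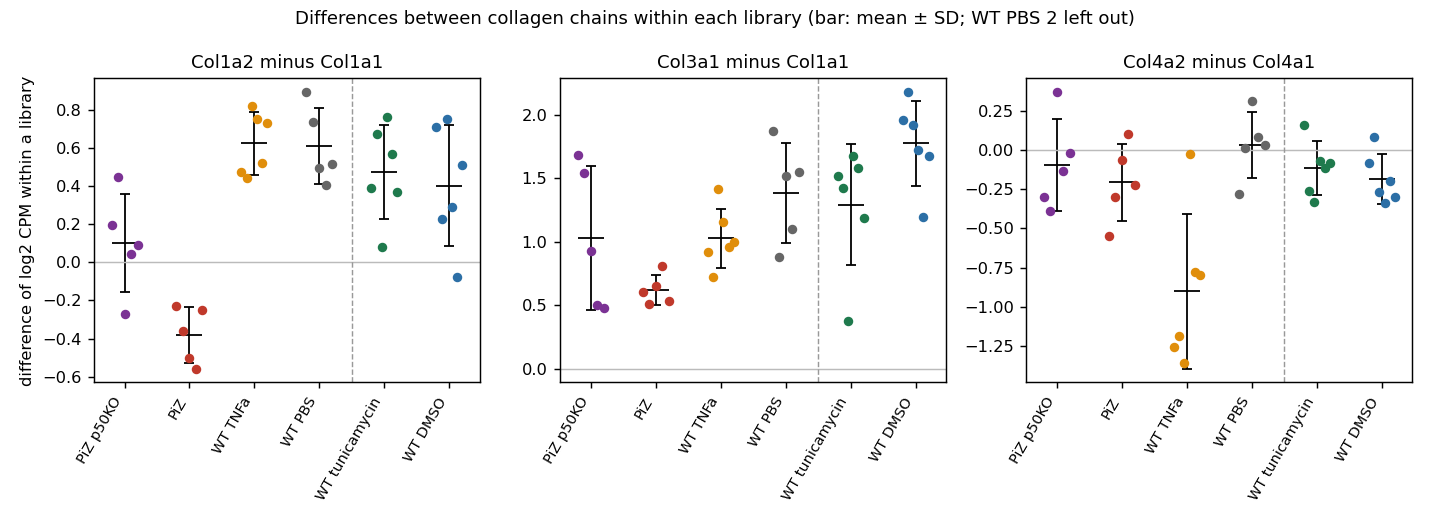
Difference of log2 CPM between 2 chains within each library (vertical axis) in the 6 groups; points are libraries and bars the mean and SD. Col1a2 minus Col1a1 is below 0 in all 5 PiZ libraries and above 0 in all WT PBS libraries shown, and Col4a2 minus Col4a1 is at or under -0.78 in 5 of 6 WT TNFa libraries.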

How the data were processed

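RNA-seq of whole liver gave 2 tables of log2 CPM, 1 of 22 libraries and 1 of 12. The authors had made these log2 values before they were deposited: per the submitters' processing notes, which name tools without an order or settings, bcl2fastq, DRAGEN, STAR 2.7.9a, featureCounts 2.0.3 of Subread and edgeR were used with GRCm38. The prior count and whether strand was used are not given in the sources used here. Each table had 55774 lines for 55487 gene IDs, and the 287 repeated lines were identical and used once. Subtracting the lowest value of a table on the CPM scale gave whole reads within 0.1 read for 100% of the values checked in each library, and the summed reads gave library sizes.

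Genes above 1 CPM in at least 5 libraries (first table) or at least 6 (second) were tested with limma 3.58.1 in R 4.3.3 (lmFit and eBayes with a trend, two-sided), on 1 model per table, with Benjamini-Hochberg adjustment over all genes tested and a threshold of 0.05. WT PBS 2 was left out of these models. The 4 comparisons of the series design and 1 secondary comparison (PiZ p50KO against WT PBS) were made. Differences between chains were tested by exact permutation (scipy 1.17.1). Class sums are summed CPM and carry no test. Exon lengths and positions come from GENCODE, with all 44 genes matched. The limma step was tested on simulated data. Python 3.11.15, numpy 2.4.6, pandas 2.3.3 and matplotlib 3.10.9 were used for the rest.

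The members, classes and lists were chosen with earlier results of these data known. Named genes were Col1a1, Col1a2, Col3a1, Col4a1, Col4a2, Col6a1, Col6a2, Col6a3, Col15a1 and Col18a1 in each comparison, up to 6 more called members with the greatest change, up to 4 called genes of the pathway list and Nfkb1, with other tested members named once. Anything else named was chosen after its values were seen. Alternatives were another scaling, a pseudocount of 1 CPM, filters at none and at 4 CPM, voom weights on the recovered reads, models of 2 groups, a replicate block, WT PBS 2 kept, and libraries left out.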

Additional observations from a re-analysis of the deposited data

Results flagged for a closer look

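In 135 groups of 4 to 10 libraries, the highest or lowest library was set against the others by Dixon's test at the 95% level, and 11 lay far from their group. Chance gives about 1 such library in 20 groups.

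Of the 11, 5 concerned WT DMSO 2, which was the lowest of its group each time. Col4a1, the type IV chain, was at 4.373 log2 CPM in WT DMSO 2 and between 5.316 and 5.717 in the other 5 WT DMSO libraries. Col13a1, the transmembrane collagen, was at 1.871 in WT DMSO 2 and between 2.753 and 3.146 in the others. Col11a2 was at -1.044 in WT DMSO 2 and between 0.909 and 1.31 in the others, and Col20a1 at -0.443 against 1.07 to 1.875. The summed basement membrane class was at 9.64 on the scale of log2 of summed CPM in WT DMSO 2 and between 10.282 and 10.589 in the others. In the same group Col12a1, a FACIT, was at 0.573 log2 CPM in WT DMSO 6 and between 1.491 and 1.713 in the others.

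The furthest value was that of Col19a1, a FACIT, with 6.307 log2 CPM (79.2 CPM) in the library labelled PiZ p50KO 3 and -3.516 to -2.451 in the 4 others of that label. Col5a2, the type V chain, was at 3.007 in WT PBS 3 and between 1.615 and 1.965 in WT PBS 1, 4, 5 and 6.

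In treated WT livers, Col27a1 was at 1.971 log2 CPM in WT TNFa 4 and between 2.894 and 3.135 in the other 5 WT TNFa libraries. Col4a2 was at 5.283 in WT tunicamycin 5 and between 5.526 and 5.619 in the other 5 WT tunicamycin libraries. Col6a2 was at 1.968 in the tunicamycin library U3 and between 2.375 and 2.474 in the other 5.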

How the results depend on the processing

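Over the alternatives, 1246 values of single members kept their direction and side of the threshold, 113 lost their call, 23 gained one, 11 without a call moved, and 1 changed sign, and the cause was not tested for any of them. With WT PBS 2 in the model, collagens called were 11 higher (PiZ against WT PBS), 0 higher and 6 lower (PiZ p50KO against PiZ), 0 higher (PiZ p50KO against WT PBS) and 1 higher (TNFa), all 44 were above 1 CPM in the WT PBS mean, Col13a1 in PiZ p50KO against WT PBS had a log2 fold change of -0.071, and Col3a1 minus Col1a1 differed by -0.353 in PiZ and 0.054 after TNFa. Libraries shifted to the same median gave 2 lower collagens in PiZ, 2 higher in PiZ p50KO against PiZ and 14 lower after tunicamycin, and class medians of 401.5 CPM (fibrillar), 717.0 CPM (basement membrane) and 171.3 CPM (other) in PiZ and 88.74 CPM (fibrillar) and 65.03 CPM (other) in WT tunicamycin. With no filter 1 collagen was lower in PiZ (845 of 37048 genes lower), and with the filter at 4 CPM 1 was higher after tunicamycin (5106 of 10265 genes higher). Without the libraries labelled PiZ p50KO 1 and 2, 0 were higher than in PiZ. PiZ p50KO against WT PBS had 6 of 17 tested collagens higher in a model of its 2 groups alone, where 214 of 12146 genes were higher. Leaving out single libraries gave 7 to 14 higher collagens in PiZ p50KO against WT PBS and 8 to 14 lower after tunicamycin. Over all genes, leaving them out gave 655 to 1859 higher (of 13239 to 13271) and 1461 to 2402 lower (of 13178 to 13259). The same gave differences for Col1a2 minus Col1a1 of 0.395 to 0.575 (PiZ p50KO against PiZ), -0.037 to 0.085 (TNFa) and -0.024 to 0.152 (tunicamycin), for Col4a2 minus Col4a1 of -0.005 to 0.189 (PiZ p50KO against PiZ) and -1.114 to -0.845 (TNFa), and for Col3a1 minus Col1a1 of -0.888 to -0.64 (PiZ) and -0.6 to -0.301 (tunicamycin).

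Libraries with the same replicate number did not deviate together in every pair (correlations of -0.233 to 0.564), so the numbers were not read as pairs. With the replicate block, 17 collagens were higher in PiZ, 1 higher and 15 lower in PiZ p50KO against PiZ, 6 higher in PiZ p50KO against WT PBS and 2 higher after TNFa. Of all 13285 genes, 5404 were higher in PiZ, and 404 were higher and 2543 lower in PiZ p50KO against PiZ. In PiZ p50KO against WT PBS 699 were higher, and after TNFa 893. For tunicamycin only the libraries numbered 1, 5 and 6 could enter, with 2 higher and 11 lower under the replicate block and 2 higher and 13 lower without it. Of all 11938 genes, 4496 were higher and 1512 lower under the block, and 4857 higher and 1583 lower without it. The fit without the block was added after the data were seen. Depth limits the members below 1 CPM, of which a library held few reads, and the 5 or 6 libraries in a group limit the precision of all others.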

Other observations

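Among the 21 genes tested in neither table, Col25a1 is named here after its values were seen. Col25a1 encodes a transmembrane collagen whose shed part is known from amyloid plaques of the brain. In the first table it was listed without a read in 3 of 5 PiZ libraries, whose range was -6.52 to -2.40 log2 CPM, and lay between -4.77 and -1.03 in the libraries labelled PiZ p50KO, between -3.14 and -0.95 in WT TNFa and between -2.35 and -0.36 in WT PBS. In the second table Col25a1 had no read in 2 of 6 WT tunicamycin libraries, whose range was -6.40 to -0.79 log2 CPM, against -1.13 to 1.55 in WT DMSO. When the filter on low values was dropped, limma called it lower in PiZ and after tunicamycin at an adjusted p under 0.05. A further 5 genes of low level, Col4a6, Col6a4, Col6a6, Col17a1 and Col22a1, were called higher in PiZ in the same model without the filter. In it 6833 of 37048 genes were higher and 845 lower. In that order, the mean levels were 0.413, 0.0658, 1.02, 0.288 and 0.0770 CPM in PiZ. In WT PBS they were 0.0763, 0.00741, 0.220, 0.00741 and 0 CPM.

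Col7a1, which forms the anchoring fibrils of skin, is likewise named after its values were seen. It lay between -0.80 and 0.65 log2 CPM in WT tunicamycin, against -6.40 to -0.61 in WT DMSO, with no read in 1 WT DMSO library, and the groups overlapped.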
